A study of Homo sapiens with 2 samples.

Results

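The mitochondrial respiratory chain was compared between the genes of its own mitochondrial genome and the nuclear genes that encode its other subunits. The 13 protein genes with the prefix MT- formed the mitochondrial set. The nuclear set was made of subunit genes chosen by symbol (NDUFA, NDUFB, NDUFC, NDUFS, NDUFV, SDHA to SDHD, UQCR, CYC1, COX4I1, COX5, COX6, COX7, COX8A, ATP5F1, ATP5M and ATP5P), without pseudogenes, antisense transcripts and the NDUFAF assembly factors. A member needed 50 or more unique molecular identifiers (UMIs, tags that each mark 1 captured RNA molecule) over both libraries, which 81 of 86 nuclear symbols had. The 94 members stood among 12128 genes that met the same minimum, out of 36601 genes in the files.

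Single-cell RNA-seq had been made from 2 libraries of a human leukemia cell line labelled MOLT4, 1 untreated and 1 treated with SP11 at 0.8 µM, both collected at 48 h. The study describes SP11 as a small molecule directed at HSP90, the chaperone on which many kinases and receptors depend for their fold. The control received no treatment, and no vehicle is named for it. With 1 library in each group there was no replicate, so no test was possible, and every interval given covers counting error only, at 95%.

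The chain passes electrons from NADH and succinate to oxygen and stores the energy as a proton gradient, which ATP synthase uses to make ATP. Complexes I, III, IV and V hold subunits from both genomes, whereas complex II is wholly nuclear. The mitochondrial genome is transcribed as long RNAs from each strand, which are then cut into separate mRNAs, so its genes share transcription start sites but not the lifetimes of their mRNAs. Each nuclear subunit gene has a promoter of its own, and many of these carry sites for NRF1 and the GABP factors.

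After removal of barcodes over 20% mitochondrially encoded UMIs, 1053 control cells with 19375163 UMIs and 852 SP11 cells with 9498802 UMIs remained, with medians of 17711 and 10488.5 UMIs per cell. A count of 0 allows up to 0.155 CPM, the UMIs of a gene scaled to a common library total, in control and 0.316 CPM in SP11. The libraries shared 114 barcodes. The T-cell identity of the label was not borne out: 9 of 23 T lineage markers were at 0 in both libraries, among them CD3D, CD3G, CD7, TRBC1 and TRBC2, and the 23 summed to 9.96 CPM in control against 12 CPM in SP11. The 18 markers of granulocyte precursors and monocytes summed to 2854 and 2090 CPM, and none was at 0. The 6 B cell markers summed to 23.2 and 16.1 CPM, the 5 erythroid markers to 5.42 and 5.05 CPM, and the 4 muscle markers to 0.0516 and 0.316 CPM. The cells are therefore called the control and SP11 cells without a lineage, and what the marker difference contributes to the results was not tested.

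The 2 sets moved in opposite directions. The mitochondrially encoded mRNAs held 1746519 UMIs in control against 532334 in SP11, or 9.01% and 5.60% of all UMIs, a log2 ratio of SP11 over control of -0.69 (-0.69 to -0.68). The nuclear subunits held 416285 and 321876 UMIs, or 2.15% and 3.39%, a log2 ratio of 0.66 (0.65 to 0.66). For each UMI of a nuclear subunit there were thus 4.20 mitochondrial UMIs in control and 1.65 in SP11, which is 2.54-fold more in control (log2 ratio -1.34, exact interval -1.35 to -1.34). This last ratio does not depend on how the libraries are scaled. It is a ratio of molecules counted and not of molecules per length, so its change is of more use than its level.

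By gene, the median log2 ratio was -0.86 over the 13 mitochondrial members and 0.43 over the 81 nuclear members (quartiles 0.05 and 0.79), beside -0.35 over all measured genes. Taking 1.5-fold as a size and not as a call, 11 of the 13 mitochondrial members were at least 1.5-fold lower in SP11 and 0 were higher, where 38.4% of all measured genes were as much lower. Of the nuclear members, 32 (39.5%) were at least 1.5-fold higher, where 10.7% of all measured genes were, and 3 were as much lower. Ratios above 0 were found for 63 nuclear members, and 75 of the 81 lay above the all-gene median. With TMM factors (trimmed mean of M values), which set the typical gene near 0 by moving every log2 ratio up by 0.34, 53 of 81 nuclear members were at least 1.5-fold higher beside 22.2% of all genes, and 5 of 13 mitochondrial members were as much lower beside 24.5%. The direction of both sets was the same under each scaling used, and only the sizes shifted.

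**Figure D1:**
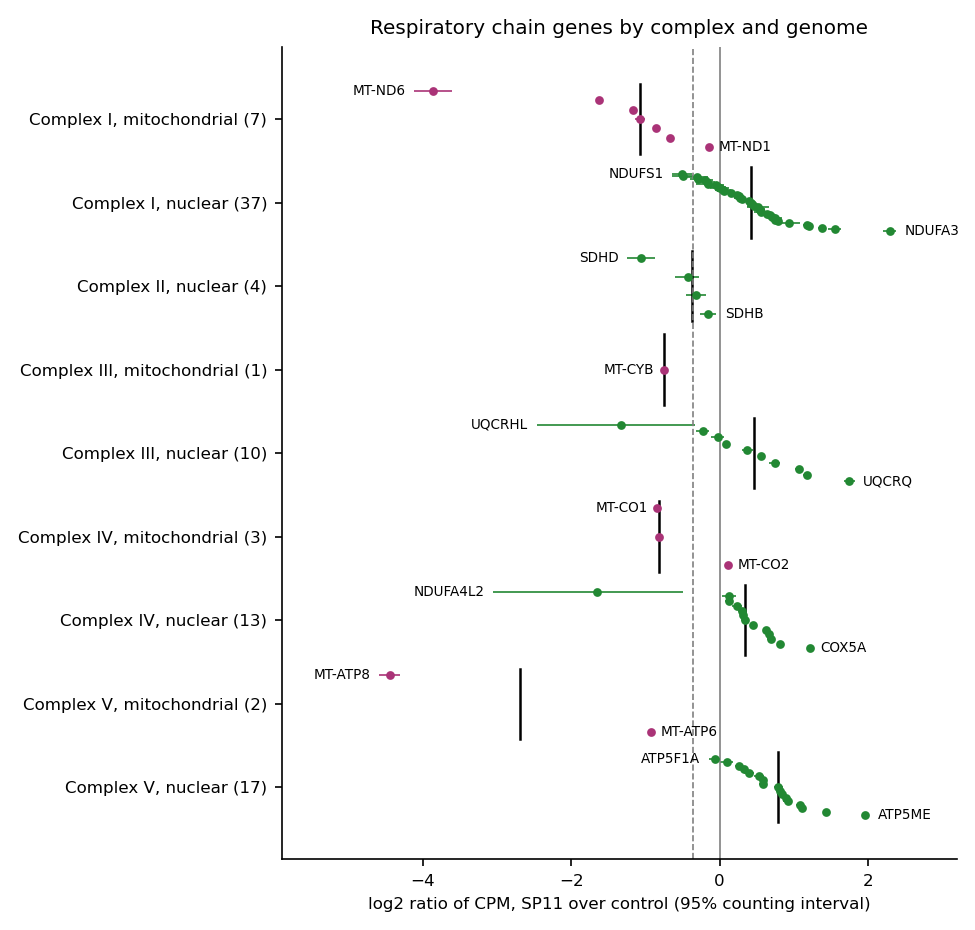
log2 ratio of CPM, SP11 over control (x axis), for the 94 respiratory chain members, in rows by complex and genome with the number of members in brackets. Points are genes with their 95% counting interval, black bars are medians of a row, a dashed line marks the all-gene median (-0.35), and the highest and lowest gene of each row is named. On this scale mitochondrial members lie left of 0 except MT-CO2 (with TMM also MT-ND1), and most nuclear members outside complex II lie right of it.

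The same split appeared inside each complex that draws on both genomes. Mitochondrial UMIs per nuclear UMI went from 4.40 in control to 1.63 in SP11 for complex I (log2 ratio -1.43, -1.44 to -1.42), and from 1.31 to 0.504 for complex III (-1.38, -1.41 to -1.35). For complex IV they went from 7.81 to 3.69 (-1.08, -1.10 to -1.07), and for complex V from 2.25 to 0.622 (-1.85, -1.87 to -1.84). The fold between libraries was smallest in complex IV, at 2.11, and highest in complex V, at 3.62, with intervals that do not overlap those of the other complexes.

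Among the mitochondrial genes the differences were far from even. MT-ND1, MT-ND2, MT-ND3, MT-ND4, MT-ND4L, MT-ND5 and MT-ND6 encode the membrane core of complex I, through which protons are pumped. MT-ND1 lay at 5051 CPM in control against 4572 CPM in SP11 (log2 ratio -0.14, -0.16 to -0.13), and MT-ND2 at 5894 and 3248 CPM (-0.86). MT-ND3 lay at 4130 and 2605 CPM (-0.66), and MT-ND4 at 12909 and 5729 CPM (-1.17). All 7 were lower in SP11 on the CPM scale, but MT-ND1 was higher by 0.20 with TMM and 0.22 with DESeq2 size factors. MT-ND5, the longest of the ND genes, lay at 2015 and 653 CPM, a log2 ratio of -1.63 (-1.66 to -1.59). MT-ND6 is the only one of the 13 that is read from the other strand, and it lay far below the other six, with 3926 UMIs (203 CPM) in control and 133 UMIs (14.0 CPM) in SP11, with a log2 ratio of -3.86 (-4.12 to -3.61).

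MT-CYB, the cytochrome b of complex III, lay at 3509 CPM in control against 2095 CPM in SP11 (log2 ratio -0.74). Complex IV takes its 3 core subunits from the mitochondrial genome. MT-CO1 lay at 9056 and 5048 CPM (-0.84) and MT-CO3 at 20842 and 11805 CPM (-0.82). MT-CO2, which receives electrons from cytochrome c, lay at 12204 and 13225 CPM (log2 ratio 0.12, 0.11 to 0.13). It was the only mitochondrial gene above 0 on the CPM scale, and its ratio was -0.03 when only cells with 8000 to 14000 UMIs were compared. Its share of all mitochondrial UMIs was 13.5% in control and 23.6% in SP11, and there were 135 MT-CO2 UMIs per 100 of MT-CO1 in control and 262 in SP11. MT-CO3 per 100 MT-CO1 differed little, at 230 and 234.

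**Figure D2:**
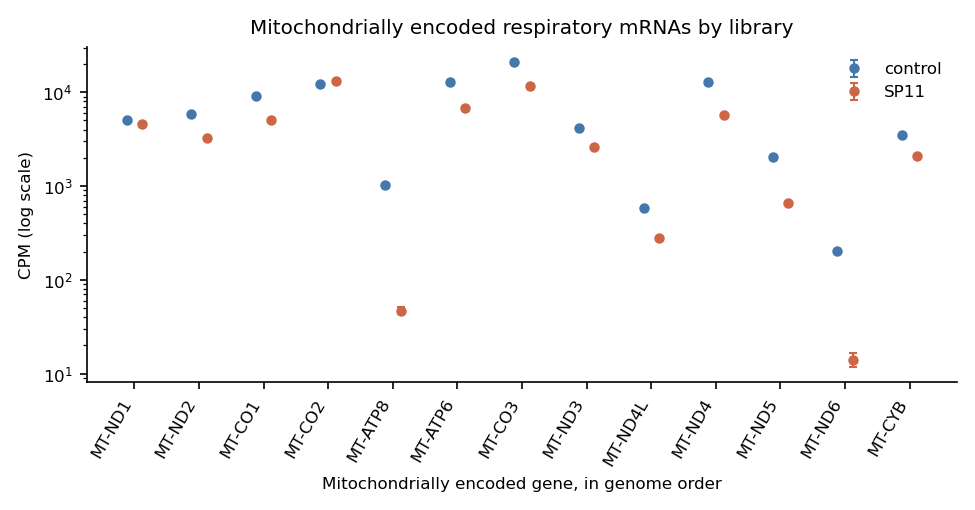
CPM on a log scale (y axis) of the 13 mitochondrially encoded mRNAs in their order along the mitochondrial genome (x axis), control in blue and SP11 in orange, with 95% counting intervals that are mostly smaller than the points. MT-ATP8 and MT-ND6 stand apart with the widest gaps, at 1025 against 46.9 CPM and 203 against 14.0 CPM, while MT-CO2 and MT-ND1 nearly coincide.

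Complex V, the ATP synthase, has 2 mitochondrial subunits, MT-ATP6, part of its proton channel, and MT-ATP8, a small membrane subunit. MT-ATP6 lay at 12720 CPM in control against 6724 CPM in SP11 (log2 ratio -0.92). MT-ATP8 was counted 19858 times in control (1025 CPM) and 446 times in SP11 (46.9 CPM), with a log2 ratio of -4.45 (-4.59 to -4.31) and the lowest of all 94 members. Both proteins are read from 1 mRNA, since the end of MT-ATP8 (chrM:8366-8572, plus strand, GRCh38) overlaps the start of MT-ATP6 (chrM:8527-9207) by 46 bases. MT-ND4L (chrM:10470-10766) and MT-ND4 (chrM:10760-12137) form the other such pair, with an overlap of 7 bases. Both overlaps are shown because they decide which UMIs can be given to a single gene, with 6 bases on each side in lower case and the bases that belong to both genes in capitals.
MT-ATP8 and MT-ATP6, chrM:8521-8578: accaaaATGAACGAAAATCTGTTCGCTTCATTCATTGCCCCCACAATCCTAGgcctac
MT-ND4L and MT-ND4, chrM:10754-10772: actccaATGCTAAaactaa

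Each stretch opens with the start codon of the downstream gene and ends with the stop codon of the upstream one. How reads over such an overlap were assigned is not stated in the sources used here, so the level of the upstream gene is uncertain. The pairs differed from each other. For each 100 MT-ATP6 UMIs there were 8.06 of MT-ATP8 in control (7.94 to 8.17) and 0.698 in SP11 (0.635 to 0.766), an 11.5-fold gap. For each 100 MT-ND4 UMIs there were 4.54 of MT-ND4L in control (4.45 to 4.62) and 4.86 in SP11 (4.67 to 5.06). Although MT-ND4L itself was lower in SP11, at 586 against 279 CPM (log2 ratio -1.07), it stood in nearly the same proportion to its partner in both libraries, and MT-ATP8 did not.

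The MT-ATP8 gap was found in each of the subsets of cells described next. Over 6 clusters in each library, MT-ATP8 per 100 MT-ATP6 ran from 3.05 to 8.35 in control and from 0.482 to 1.38 in SP11, so the point values did not overlap. The facing ends came from clusters with few counts, 15 MT-ATP8 UMIs in control (interval 1.70 to 5.09) and 3 in SP11 (0.283 to 4.09). The intervals of these 2 clusters do overlap. In the barcodes removed for over 20% mitochondrial UMIs it was 4.31 in control (23 barcodes) and 0.707 in SP11 (12 barcodes). In cells thinned to 4400 UMIs each, which left out 90 control and 83 SP11 cells under that depth, MT-ATP8 was detected in 97.2% of 963 control cells (95.9 to 98.1) against 17.3% of 769 SP11 cells (14.7 to 20.2), with unthinned shares of 93.3% and 37.9%. MT-ND6 was found in 53.1% (49.9 to 56.3) and 4.55% (3.19 to 6.27) of the thinned cells, and in 84.1% and 12.9% of the unthinned ones. There were 5.77 MT-ND6 UMIs per 100 of MT-CYB in control and 0.668 in SP11, an 8.64-fold gap. Per 100 of MT-ND5 there were 10.1 in control and 2.14 in SP11, a smaller gap of 4.69-fold. MT-ND6 (chrM:14149-14673, minus strand) lies opposite RNA from the other strand, and whether the counting kept the strands apart is not stated in the sources used here. All cells in culture carry mitochondria, so no cell type could serve to give the background from free RNA for these genes.

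The nuclear subunits of complex I, the NADH dehydrogenase, comprised 37 members with 135476 UMIs in control and 99391 in SP11, or 6992 and 10463 CPM, a log2 ratio of 0.58 (0.57 to 0.59) and a median of 0.42. At the 1.5-fold size 12 were higher and 0 lower, beside 10.7% and 38.4% of all measured genes. NDUFA3, a small accessory subunit of the membrane arm, lay at 74.99 CPM in control (1453 UMIs) against 368 CPM in SP11 (3493 UMIs), with a log2 ratio of 2.29 (2.21 to 2.38) and the highest of all members. NDUFB1 followed with 93.4 and 274 CPM (1.56, 1.47 to 1.64) and NDUFA11 with 287 and 748 CPM (1.38, 1.33 to 1.43), both accessory subunits of the membrane arm too. At the low end were NDUFS1 with 91.9 and 64.8 CPM (-0.50, -0.64 to -0.37), NDUFS4 with 88.0 and 62.2 CPM (-0.50, -0.64 to -0.36) and NDUFA5 with 67.2 and 54.6 CPM (-0.30, -0.45 to -0.15), which belong to the arm that extends into the matrix. NDUFA5 was above 0, at 0.05, with TMM.

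The complex I members were also grouped by role, and the 2 groups overlapped. On the CPM scale the core ran from -0.50 to 0.55 and the accessory subunits from -0.50 to 2.29. With the intronic bin subtracted the medians were 0.25 for the core and 0.51 for the accessory subunits. What role contributes was not tested. The 7 nuclear core subunits, which carry the flavin and iron-sulfur clusters that take electrons from NADH to ubiquinone, had a summed log2 ratio of 0.18 (0.14 to 0.21) and a median of 0.05, with 0 of 7 past 1.5-fold in either direction on the CPM scale. The 30 accessory subunits had a summed ratio of 0.63 (0.62 to 0.65) and a median of 0.45, with 12 at least 1.5-fold higher on the CPM scale. With TMM the core median was 0.40 with 3 of 7 at least 1.5-fold higher, and the accessory median was 0.80 with 20 of 30. Of all measured genes, 10.7% were as much higher on the CPM scale and 22.2% with TMM. Within the core, NDUFS3 (0.55), NDUFS8 (0.53) and NDUFS7 (0.27) were above 0, NDUFV2 (0.05) and NDUFV1 (0.04) were close to it, and NDUFS1 (-0.50) was below it. NDUFV1 was below 0 when totals left out the mitochondrial genes, and NDUFV2 was below 0 when cells were weighted equally or thinned.

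Complex II, the succinate dehydrogenase, was the exception among the nuclear sets. Its 4 subunits summed to 318 CPM in control (6165 UMIs) against 244 CPM in SP11 (2314 UMIs), with a log2 ratio of -0.39 (-0.45 to -0.32), close to the all-gene median of -0.35. SDHA, the flavoprotein, lay at 60.5 and 44.9 CPM (-0.43, -0.60 to -0.27), and SDHB, which holds the iron-sulfur clusters, at 115 and 104 CPM (-0.15, -0.26 to -0.04). SDHC and SDHD anchor the enzyme in the inner membrane, and lay at 82.3 and 66.1 CPM (-0.32, -0.45 to -0.18) and at 60.3 and 29.0 CPM (-1.06, -1.25 to -0.87). SDHD was the lowest nuclear member with more than 100 UMIs in control. With TMM, SDHB and SDHC lay above 0, at 0.19 and 0.03, SDHB lay at 0.01 in cells with 8000 to 14000 UMIs, and the summed complex II ratio was -0.04.

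Complex III, the cytochrome bc1 complex, had 10 nuclear members. They summed to 2677 CPM in control against 4153 CPM in SP11, with a log2 ratio of 0.63 (0.61 to 0.65). At the 1.5-fold size 4 were higher and 1 lower, beside 10.7% and 38.4% of all measured genes. The highest were 3 small subunits, UQCRQ with 138 and 463 CPM (1.75, 1.68 to 1.82), UQCR11 with 357 and 804 CPM (1.17) and UQCR10 with 272 and 572 CPM (1.07). The electron-carrying subunits were UQCRFS1, the Rieske iron-sulfur protein, with 217 and 281 CPM (0.37, 0.30 to 0.45), and CYC1, cytochrome c1, with 192 and 189 CPM (-0.03, -0.11 to 0.06). UQCRC2, a core protein without a redox centre, lay at 177 and 152 CPM (-0.22, -0.31 to -0.14). CYC1 and UQCRC2 were above 0 with TMM, at 0.32 and 0.12, and CYC1 also lay at 0.05 in cells with 8000 to 14000 UMIs. UQCRHL, with 51 and 10 UMIs (-1.32, -2.47 to -0.33), is a near-identical copy of UQCRH, and its count is uncertain for that reason.

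Complex IV, the cytochrome c oxidase, had 13 nuclear members that surround its mitochondrial core. They summed to 5390 CPM in control against 8143 CPM in SP11 (log2 ratio 0.60, 0.58 to 0.61). At the 1.5-fold size 5 were higher and 1 lower, beside 10.7% and 38.4% of all measured genes. COX5A lay at 638 and 1479 CPM (1.21, 1.18 to 1.25), COX6B1 at 481 and 849 CPM (0.82, 0.78 to 0.86) and COX7A2 at 455 and 735 CPM (0.69, 0.65 to 0.74). COX7A2L, which takes part in joining complexes III and IV into supercomplexes, lay at 131 and 143 CPM (0.13, 0.03 to 0.22), and was at -0.01 in cells with 8000 to 14000 UMIs. NDUFA4, named for complex I but a subunit of complex IV, lay at 410 and 449 CPM (0.13, 0.08 to 0.18). Its relative NDUFA4L2, known as a gene induced by hypoxia, was just inside the minimum with 45 and 7 UMIs (-1.66, -3.05 to -0.50).

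Complex V had the highest nuclear ratio of the 5 complexes. Its 17 members summed to 6108 CPM in control against 10883 CPM in SP11, with a log2 ratio of 0.83 (0.82 to 0.85) and a median of 0.79. At the 1.5-fold size 11 were higher and 0 lower, beside 10.7% and 38.4% of all measured genes. ATP5ME, a small subunit of the membrane part, lay at 248 and 970 CPM (1.96, 1.91 to 2.02), ATP5F1E, the smallest F1 subunit, at 628 and 1696 CPM (1.43, 1.40 to 1.47), and ATP5MD, another small membrane subunit, at 401 and 867 CPM (1.11, 1.07 to 1.16). The catalytic F1 subunits were nearer 0. ATP5F1A lay at 206 and 196 CPM (-0.07, -0.15 to 0.01), which is 0.28 with TMM, and ATP5F1B at 246 and 323 CPM (0.40, 0.33 to 0.46). ATP5F1C, the central shaft, lay at 165 and 177 CPM (0.09, 0.01 to 0.18), and ATP5PF, in the outer stalk, at 460 and 550 CPM (0.26, 0.21 to 0.31). By part of the enzyme, 2 of the 5 ATP5F1 subunits and 9 of the 12 subunits of the outer stalk and membrane part were at least 1.5-fold higher. With TMM these were 3 of 5 and 12 of 12, beside 22.2% of all measured genes. The medians were 0.40 and 0.82, but the summed ratios ran the other way, at 0.87 (0.85 to 0.89) and 0.82 (0.81 to 0.83).

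Several subunits have forms made in other tissues. COX6A2, COX7A1 and COX7B2 were at 0 in both libraries, COX6B2 had 5 UMIs in control against 0 in SP11, and COX4I2 had 5 against 2. COX8C, an isoform known from testis that the members' rule did not take in, had 715 UMIs in control against 456 in SP11, or 36.9 and 48.0 CPM. Of the nuclear symbols under the minimum, ATP5MGL was the closest with 27 and 13 UMIs, and the members just inside it were NDUFA4L2 and UQCRHL.

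Promoters of 3 nuclear members are given because they are the highest of complexes I and V and the lowest of complex II. Each runs from 250 bases before to 50 bases after the start of the gene in RefSeq (GRCh38.p14) and is written 5′ to 3′ on the strand of the gene. Capitals mark matches on either strand to GCGCNTGCG, the core of the NRF1 site, and to CCGGAAG, the core bound by GABPA. The NRF1 core is nearly the same on both strands, so that its matches can overlap each other.
NDUFA3, chr19:54102605-54102904, plus strand: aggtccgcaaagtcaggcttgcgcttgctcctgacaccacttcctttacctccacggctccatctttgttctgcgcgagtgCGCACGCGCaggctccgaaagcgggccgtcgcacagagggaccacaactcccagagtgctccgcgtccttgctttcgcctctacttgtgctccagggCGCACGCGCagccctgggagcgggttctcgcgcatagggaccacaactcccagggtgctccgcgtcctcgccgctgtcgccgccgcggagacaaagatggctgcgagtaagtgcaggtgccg
ATP5ME, chr4:674227-674526, minus strand: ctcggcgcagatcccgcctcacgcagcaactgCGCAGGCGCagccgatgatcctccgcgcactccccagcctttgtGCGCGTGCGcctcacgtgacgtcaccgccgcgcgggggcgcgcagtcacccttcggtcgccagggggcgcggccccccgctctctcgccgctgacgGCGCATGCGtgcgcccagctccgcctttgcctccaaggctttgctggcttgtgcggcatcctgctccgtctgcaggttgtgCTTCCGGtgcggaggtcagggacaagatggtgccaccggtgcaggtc
SDHD, chr11:112086623-112086922, plus strand: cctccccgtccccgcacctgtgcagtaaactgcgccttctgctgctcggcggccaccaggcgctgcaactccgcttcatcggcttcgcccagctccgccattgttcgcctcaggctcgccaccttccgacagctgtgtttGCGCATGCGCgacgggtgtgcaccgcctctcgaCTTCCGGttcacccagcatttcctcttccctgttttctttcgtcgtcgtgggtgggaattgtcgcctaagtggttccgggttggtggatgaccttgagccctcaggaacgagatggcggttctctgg

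The genes themselves span chr19:54102728-54109257, chr4:672436-674330 and chr11:112086824-112120016. All 3 windows held the NRF1 core, whether the gene was higher or lower in SP11, and those of ATP5ME and SDHD also held the GABPA core. Over the 66 of 81 nuclear members with a promoter in the table, 33.3% held the NRF1 core and 30.3% the GABPA core, beside 11.0% and 14.2% of 15842 promoters of protein-coding genes. AAGATGGCG, the core of the YY1 site, was found in 12.1% of the members and 2.74% of all. Of the 28 matched members that were at least 1.5-fold higher, 35.7% held the NRF1 core, 39.3% the GABPA core and 7.14% the YY1 core, beside 31.6%, 23.7% and 15.8% of the other 38. A match of letters describes the window and is no evidence that a factor binds there.

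Over all measured genes the ratio differed with intronic length. In 20 bins of intronic length, the median log2 ratio was -0.20 in the first bin (median 0 bases of intron), 0.12 in the second (1094 bases) and -1.02 in the last (357856 bases). The nuclear members are short, with a median of 8771 intronic bases beside 27795.5 over all measured genes. Still, 69 of the 81 lay above the median of their own bin, by a median of 0.46, and with that subtraction 33 were at least 1.5-fold higher and 3 lower. The subtraction brought complex II to a median of -0.04. It also changed the sign of single members. For example, NDUFS4 (0.20), SDHB (0.14), SDHC (0.06) and ATP5F1A (0.05) came to lie above 0, and NDUFV1 (-0.08) below it. Across the 81 members the Spearman correlation of ratio and intronic length was -0.31, as a description of genes that share the same libraries. The correlation of ratio and CPM in control was 0.42, but CPM in control is also the denominator of the ratio. The parts of intronic length and of CPM in control were not separated. Whether reads in introns were counted is not stated in the sources used here, and its part in these ratios was not tested.

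**Figure D3:**
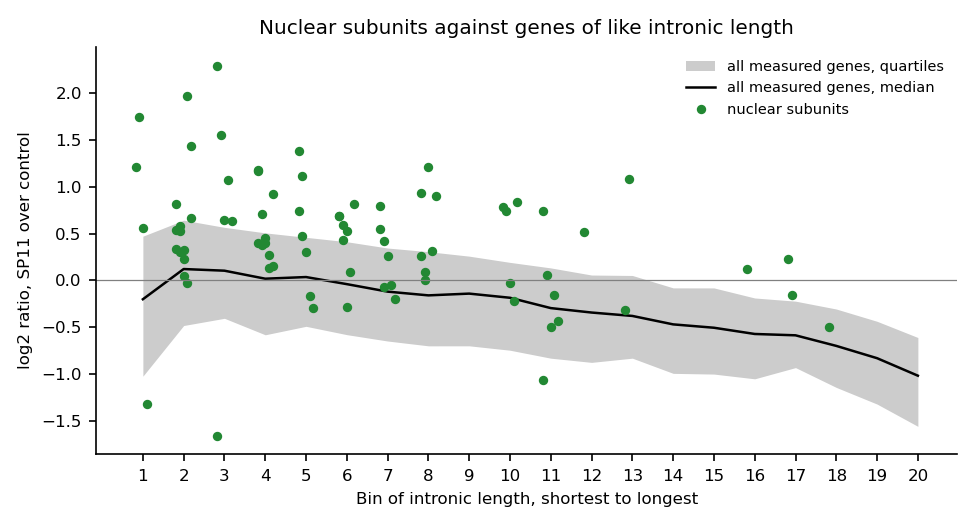
log2 ratio of CPM, SP11 over control (y axis), in 20 bins of intronic length from shortest to longest (x axis). The black line and grey band are the median and quartiles of all measured genes in the bin, and green points are the nuclear subunits, of which 69 of 81 lie above the line.

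Per cell, the mitochondrial genes took a median of 8.94% of UMIs in control (quartiles 7.82 and 10.1) against 5.51% in SP11 (4.24 and 6.67), and the median nuclear share 2.16% (1.90 and 2.47) and 3.38% (3.05 and 3.71). Thinned to 4400 UMIs, the median cell had 4.25 mitochondrial UMIs per nuclear UMI in control (quartiles 3.61 and 5.13) and 1.66 in SP11 (1.32 and 2.07). The quartile ranges did not overlap. Mitochondrial UMIs outnumbered nuclear ones in 957 of 963 control cells against 708 of 769 SP11 cells after thinning. Among the cells of 1 library the 2 shares were almost unrelated, with Pearson correlations of -0.02 in control and 0.08 in SP11. Within the mitochondrial set, the summed MT-CO and summed MT-ND UMIs were correlated at 0.67 and 0.80. These correlations are over cells of a single library that share depth and handling.

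**Figure D4:**
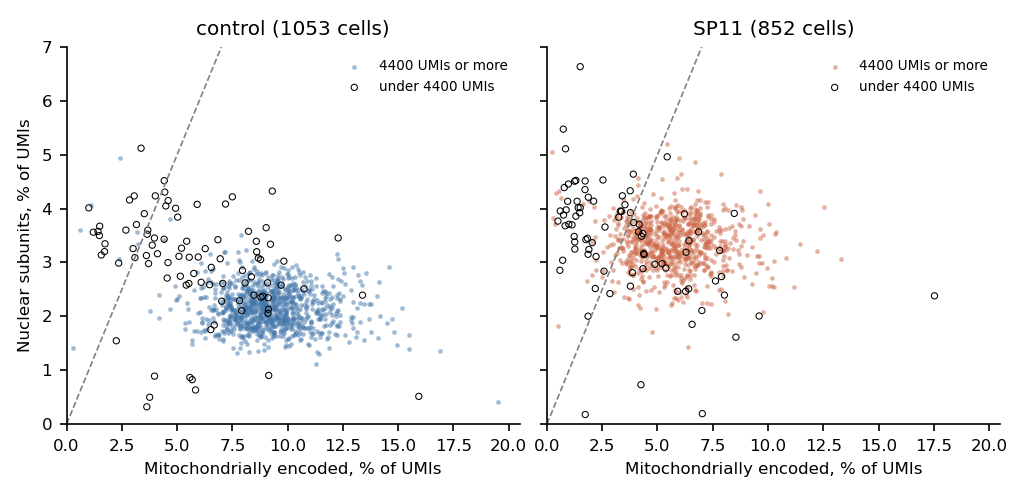
Share of UMIs from mitochondrially encoded mRNAs (x axis) against nuclear subunits (y axis) for each kept cell, with control on the left (1053 cells) and SP11 on the right (852 cells). Open circles are cells under 4400 UMIs and the dashed line marks equal shares, and the SP11 cells lie higher (median 3.38% against 2.16%) and further left (5.51% against 8.94%) than the control cells.

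SP11 cells had fewer UMIs, so the libraries were also compared at like depth. In each of 5 ranges from 8000 UMIs upward, control had 2.49 to 2.86 times as many mitochondrial UMIs per nuclear UMI as SP11. The fold was 1.28 between 4400 and 8000 UMIs, where control had only 12 cells, and 1.90 under 4400 UMIs, where it had 90 cells and SP11 had 83. In the lowest range the ratio itself was 2.07 in control and 1.09 in SP11, below that of every deeper range of the same library.

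**Figure D5:**
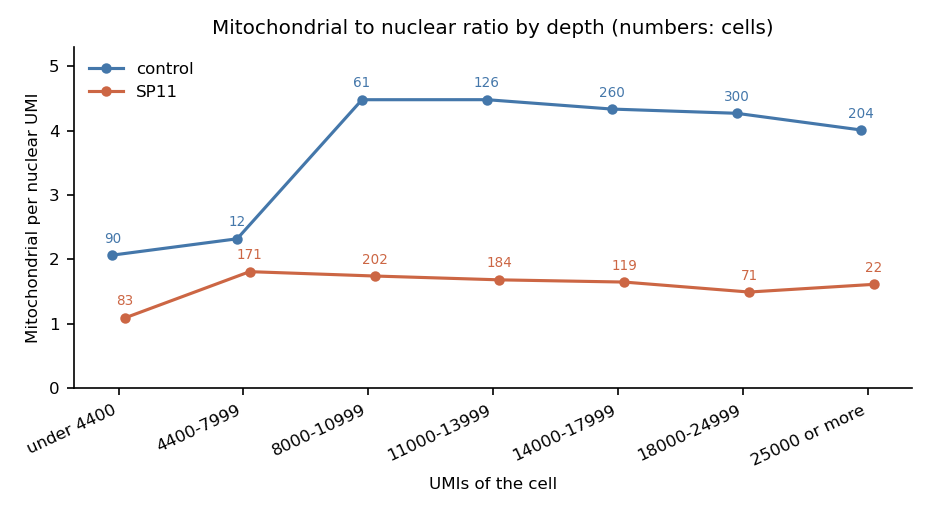
Mitochondrial UMIs per nuclear-subunit UMI (y axis), summed over cells in 7 ranges of UMIs per cell (x axis), control in blue and SP11 in orange, with the number of cells at each point. Control lies above SP11 in every range, with the highest fold between 18000 and 25000 UMIs (4.27 against 1.49, 2.86-fold).

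Clusters built in each library on its own gave the same order. In 5 control clusters the ratio was 3.84 to 4.51, and in 5 SP11 clusters 1.49 to 1.96. The 1 remaining cluster in each library was shallow and low. In control it had 76 cells, a median of 787.5 UMIs and a ratio of 1.05, and in SP11 it had 70 cells, a median of 1826 UMIs and a ratio of 0.378. Leaving out any single cluster kept the ratio of the rest between 4.06 and 4.27 in control and between 1.59 and 1.72 in SP11. In the shared barcodes alone it was 4.07 (111 kept cells) and 1.76 (112 kept cells), and without them the log2 ratio between libraries was -1.36.

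The barcodes removed were chosen for a mitochondrial share over 20%, so their values are a description. In those the mitochondrial genes took 32.9% of UMIs in control against 42.6% in SP11, and the nuclear subunits 0.615% against 1.11%.

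Genes that build and regulate the chain are given as lists, each with its counts past 1.5-fold, to be read beside the 10.7% of all measured genes that were as much higher and the 38.4% that were as much lower (22.2% and 24.5% with TMM). Of 19 complex I assembly genes, 2 exceeded the 1.5-fold size upward and 5 downward, with a median of -0.26 (with TMM 2 and 3, median 0.08). NDUFAF4 lay at 47.2 CPM in control against 119 CPM in SP11 (1.34, 1.21 to 1.47) and NDUFAF8 at 108 and 203 CPM (0.92), whereas NUBPL, which delivers iron-sulfur clusters to complex I, lay at 61.2 and 15.4 CPM (-1.99, -2.25 to -1.74) and NDUFAF7 at 26.8 and 13.7 CPM (-0.97). Of 16 assembly genes of complexes II, III and V, 1 was higher and 5 lower (median -0.35, with TMM 4 and 2, median -0.01). SDHAF4, an assembly factor of complex II, lay at 30.0 and 8.42 CPM (-1.83, -2.19 to -1.49) and TMEM242 at 45.3 and 21.6 CPM (-1.07), and UQCC3 and UQCC2 of complex III had ratios of 0.80 and 0.57. Of 23 complex IV assembly genes, 5 were higher and 3 lower (median 0.05, with TMM 9 and 0, median 0.39), from PET100 with 81.8 and 202 CPM (1.30) and COX20 with 67.8 and 150 CPM (1.14) to CMC1 (-0.76) and COX18 (-0.93).

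The machinery of the mitochondrial genome was mixed. Of 9 genes listed under transcription, 2 exceeded 1.5-fold upward and 4 downward (median -0.54, with TMM 3 and 1, median -0.20). POLRMT, the mitochondrial RNA polymerase, lay at 19.4 CPM in control against 40.6 CPM in SP11 (1.07, 0.86 to 1.28) and MRPL12 at 179 and 296 CPM (0.72), while TFB1M lay at 90.7 and 48.6 CPM (-0.90) and MTERF1, a factor that binds mitochondrial DNA, at 24.7 and 9.90 CPM (-1.32). Of 15 replication and packaging genes, 1 was higher and 5 lower (median -0.17, with TMM 3 and 3, median 0.17). TWNK, the replicative helicase, lay at 14.2 and 30.0 CPM (1.08, 0.84 to 1.32) and TFAM, which packages mitochondrial DNA and starts its transcription, at 86.0 and 113 CPM (0.40, 0.28 to 0.51), with TK2 (-1.20) and PRIMPOL (-1.45) lowest. Of 21 RNA processing and turnover genes, 4 were higher and 3 lower (median 0.00, with TMM 8 and 2, median 0.34). LRPPRC and SLIRP form a complex that keeps mitochondrial mRNAs stable. On the CPM scale they went apart, LRPPRC with 288 and 215 CPM (-0.42, -0.50 to -0.35) and SLIRP with 228 and 298 CPM (0.39, 0.32 to 0.46). With TMM they were at -0.08 and 0.73. Relative to the medians of their bins of intronic length both were above 0, at 0.15 and 0.86. The ends of that list were FASTKD5 (1.05) and HSD17B10 (0.86), and ANGEL2 (-0.99) and FASTKD1 (-1.19).

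Of 12 nuclear regulators of respiratory genes, 0 were at least 1.5-fold higher and 1 was lower (median -0.31). With TMM 4 were higher and 1 lower (median 0.03), and with the intronic bin subtracted the median was 0.22. The lower one was PPARGC1A, the coactivator PGC-1alpha (chr4:23755041-23904089, minus strand), with 949 UMIs (49.0 CPM) in control and 46 UMIs (4.84 CPM) in SP11 (log2 ratio -3.34, -3.80 to -2.91). It holds 138179 intronic bases, and its ratio lay at -2.64 relative to the median of its bin of intronic length (-0.70). The other ends of the list were CHCHD2 (0.48), HCFC1 (0.40) and GABPB2 (-0.56). Of 17 genes of the electron carriers and the tricarboxylic acid cycle, 2 were higher and 5 lower (median 0.05, with TMM 5 and 1, median 0.40). CYCS, cytochrome c, lay at 325 and 465 CPM (0.52, 0.46 to 0.57), IDH3G and IDH3B had ratios of 0.64 and 0.59, and OGDH (-0.85) and DLST (-1.69, -2.14 to -1.26), which belong to 1 enzyme of the cycle, were the lowest.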

How the data were processed

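Transcripts of single cells were counted in 2 libraries, 1 untreated and 1 with SP11, grouped by the treatment label. The authors deposited UMI counts per gene and barcode, not normalized, made with Cell Ranger 7.1.0 per the file headers on GRCh38 (hg38) per the submitters' processing notes. The chemistry and the counting of introns are not stated in the sources used here. As the study's methods state, a barcode was kept with at least 200 genes and no more than 20% of UMIs from mitochondrial genes, and the numbers kept differ from those its text gives. Scrublet (scanpy 1.11.5) called 45 control and 21 SP11 barcodes as doublets, which were kept in the main values.

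Counts were summed per library, divided by 19375163 (control) and 9498802 (SP11) UMIs and given as CPM, with log2 ratios without pseudocount. Intervals are exact Clopper-Pearson (scipy 1.17.1) for a gene or sum and exact conditional (R 4.3.3) for a ratio of sums. The code was tested on simulated data. Clusters came from Seurat 5.3.0 in each library (2000 variable genes, 10 components, resolution 0.5), and intron lengths from GENCODE 44. Members and lists were chosen with earlier results of these data known. Genes were named by rule: every MT- gene and complex II subunit, the 3 highest and 3 lowest nuclear members of each other complex, the catalytic core, the tissue isoforms, and the 2 highest and 2 lowest of each list with 6 set factors. The values of 1 gene that the rule names are not reported here. Alternatives were TMM factors (edgeR 4.0.16), DESeq2 1.42.0 size factors, totals without mitochondrial genes, equal weight of cells, other cell filters, thinning, like depth, other UMI minimums, subtraction of the intronic bin and a 2-fold size.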

Additional observations from a re-analysis of the deposited data

How the results depend on the processing

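The sums and medians of the mitochondrial and nuclear sets, and the ratio between the sets, kept their direction under the alternatives that were run. The medians of other gene lists did not all do so. Complex I assembly, replication and packaging, and the nuclear regulators had medians below 0 on the CPM scale and above 0 with TMM (0.08, 0.17 and 0.03), and RNA processing, at 0.00, was at 0.34. With the intronic bin subtracted, the last 3 of these and complex II, III and V assembly were above 0, by 0.22 at most and 0.01 at least. The summed mitochondrial log2 ratio of -0.69 was -0.34 with TMM, -0.32 with DESeq2 size factors, -0.74 with totals without mitochondrial genes, -0.70 with equal weight of cells, -0.65 over all barcodes, -0.58 with at most 10% mitochondrial UMIs, -0.69 without Scrublet calls, -0.68 without cells under 4400 UMIs, -0.78 in cells of 8000 to 14000 UMIs and -0.70 without the shared barcodes, an alternative chosen after seeing the data. The summed nuclear ratio of 0.66 was 1.00 with TMM, 1.02 with DESeq2, 0.60 with totals without mitochondrial genes, 0.59 with equal weight, 0.64 thinned and 0.61 in cells of 8000 to 14000 UMIs. The ratio between the sets of -1.34 was -1.29 with equal weight, -1.31 over all barcodes, -1.24 with at most 10% mitochondrial UMIs, -1.33 thinned, -1.39 in cells of 8000 to 14000 UMIs and -1.36 without the shared barcodes. The mitochondrial median of -0.86 was -0.52 with TMM, -0.50 with DESeq2, -0.91 with totals without mitochondrial genes, -0.89 with equal weight, -0.81 over all barcodes, -0.76 with at most 10% mitochondrial UMIs, -0.96 in cells of 8000 to 14000 UMIs and -0.66 with the intronic bin subtracted. Mitochondrial genes have no introns, so the bin subtraction only took the median of the first bin (-0.20) from each of them. The nuclear median of 0.43 was 0.78 with TMM and 0.80 with DESeq2.

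The 32 nuclear members at least 1.5-fold higher became 53 with TMM, 55 with DESeq2 and 13 at 2-fold. The 3 lower became 1 with a minimum of 200 UMIs, since UQCRHL and NDUFA4L2 then drop out. The 11 lower mitochondrial members became 5 with TMM, with DESeq2 and at 2-fold. Of 85 named genes, 8 changed sign with TMM and 8 with DESeq2, which move every log2 ratio up by 0.34 and 0.36. No paired analysis was possible because each group had 1 library. For the same reason the spread between cultures is unknown, and treatment, library and depth cannot be told apart.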
